A study of Mus musculus with 58 samples.

Results

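The receptors, kinases and feedback inhibitors of interferon signalling were followed through 34 RNA-seq libraries of mouse microglia, as 10 genes chosen by name out of the 47643 genes in each count file. They were the type I interferon receptor genes Ifnar1 and Ifnar2, the interferon-γ receptor genes Ifngr1 and Ifngr2, the kinase genes Jak1, Jak2 and Tyk2, and the inhibitor genes Socs1, Socs3 and Cish. All 10 were found in every file, and 9 or 10 of them had enough counts to be tested in each of 4 comparisons. Tau fibrils raised all 4 receptor genes, Jak1 and Tyk2, and left the inhibitors without a called change. Cultures with active IKKβ had called higher levels of Socs1, Ifngr2 and Jak2 than their controls. Cultures with IKKβ deleted had higher Socs1 and lower Socs3. Both kinds of culture also carried a Cre allele that their controls lacked, and its effect cannot be told apart from that of IKKβ. Microglia from PS19 mice showed no called change in any of the 10 genes, in a comparison that recovered 23.7% of simulated 2-fold changes.

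Type I interferons bind a receptor made of IFNAR1 and IFNAR2, whose tails carry the kinases TYK2 and JAK1. Interferon-γ binds a receptor made of IFNGR1 and IFNGR2, which carry JAK1 and JAK2. The kinases phosphorylate STAT proteins, which move to the nucleus and switch on interferon-stimulated genes. Among those induced genes are the SOCS proteins: SOCS1 blocks the JAK kinases and is the main brake on interferon signalling, SOCS3 acts above all on receptors that use gp130, and CISH is a brake on STAT5 signals. Microglia are the resident macrophages of the brain and respond to both kinds of interferon.

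The study asked how tau and the NF-κB pathway, which the kinase IKKβ (gene Ikbkb) switches on, change microglial transcription. Wild-type primary microglia, cultured from newborn pups, were given full-length tau fibrils at 2 µg/ml (n = 4) or vehicle (n = 4), and were collected after 24 h. Adult microglia were isolated with CD11b beads from male mice of about 11 months, either PS19 mice (P301S+, transgenic for mutant human tau, n = 4, 10.98 months) or non-transgenic NTG mice (n = 4, of which replicates 1 and 2 were 11.18 and the others 10.98 months old). The other 4 groups were primary cultures, all treated with 4-hydroxytamoxifen, controls included. IkbkbCA cultures (Cx3cr1 CreERT2/+; IkbkbCA F/F, n = 5) express a constitutively active IKKβ from the Rosa26 locus once Cre has removed a stop. Their IkbkbWT controls (n = 5) carry the same floxed allele without Cre. Ikbkb-/- cultures (Cx3cr1 CreERT2/+; Ikbkb F/F, n = 4) lose Ikbkb after recombination, and Ikbkb+/+ controls (n = 4) carry the floxed gene without Cre. CreERT2 sits in the Cx3cr1 gene, so each Cre group also carries 1 intact Cx3cr1 allele less than its controls. The effect of altered IKKβ and that of the Cre allele cannot be told apart in these comparisons. The labels give no sex for the cultures, and the study's methods describe male mice alone for RNA-seq. The methods name biological replicates for culture experiments in general, and the labels do not tie a library to a culture, so that p-values measure the spread between libraries, which may be partly technical.

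Library totals ranged from 1672052 to 8349128 counts in genes. The level of Ikbkb was 22.9 ± 3.03 CPM (counts scaled by library size; SD, n = 4) in Ikbkb-/- and 52.2 ± 4.25 CPM in Ikbkb+/+ cultures, a log2 fold change of -1.20 (SE 0.12, FDR 6.34e-07). In IkbkbCA cultures it was 52.5 ± 6.36 CPM against 46.9 ± 6.75 CPM in IkbkbWT (n = 5 each), which was not a called difference (FDR 0.405). Whether the 3′ end reads of these libraries can come from the Rosa26 transcript is not given in the sources used here, so this level does not check the IkbkbCA labels. Cx3cr1 was lower in both Cre groups, by -0.56 (SE 0.09, FDR 0.00153) in IkbkbCA and by -1.16 (SE 0.12, FDR 1.63e-06) in Ikbkb-/- cultures on the log2 scale. All 8 microglial markers examined were detected in every experiment. The Y-linked gene Ddx3y was at 156.1 to 177.9 CPM in Ikbkb-/- and at 34.9 to 70.8 CPM in Ikbkb+/+ cultures, so that a difference in the male share of cells and the deletion cannot be told apart there. In IkbkbWT replicates 4 and 5 Ddx3y was at 1.16 and 2.08 CPM, and in replicates 1 to 3 at 145.4 to 173 CPM, beside 48.9 to 85.8 CPM in IkbkbCA libraries. Such low levels do not match cultures from male pups.

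Promoter sequence is shown for the 3 inhibitor genes, since SOCS genes are known as targets of the pathway they restrain, and for Ifngr2, which was called both with tau fibrils and with IKKβ activation. RefSeq (GRCm38.p6) gave a window of 300 bases, from 250 before to 50 after the start, for all 10 genes. Both strands were searched for the interferon-stimulated response element core GAAANNGAAA, for the STAT-binding GAS motif TTCNNNGAA and for the NF-κB consensus κB site. Of 32851 such windows 3.44% held the first, 8.3% the second and 8.46% the third. Socs1 held 2 overlapping response element cores at positions -83 to -74 and -77 to -68, and Socs3 held a GAS motif at -154 to -146. Cish held GAS motifs at 1 to 9 and 12 to 20. Ifngr2 held a κB match at -75 to -66. GAS motifs were also found in Ifnar1 (-5 to 4) and Ifnar2 (-214 to -206), and Ifngr1, Jak1, Jak2 and Tyk2 held none of the 3. A match is a string of letters and was not tested as a binding site. Capitals mark the matches in these stretches, written 5′ to 3′ on the strand of the gene.
Socs1, positions -180 to -1, chr16:10785537-10785716, minus strand: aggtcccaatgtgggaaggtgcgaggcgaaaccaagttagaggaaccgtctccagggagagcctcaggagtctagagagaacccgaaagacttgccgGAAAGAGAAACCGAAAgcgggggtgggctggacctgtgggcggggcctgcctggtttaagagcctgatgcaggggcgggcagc
Socs3, positions -180 to -91, chr11:117969457-117969546, minus strand: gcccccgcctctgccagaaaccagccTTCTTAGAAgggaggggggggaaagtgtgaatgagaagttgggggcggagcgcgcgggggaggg
Cish, positions -10 to 20, chr9:107296649-107296678, plus strand: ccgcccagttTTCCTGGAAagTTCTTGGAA
Ifngr2, positions -120 to -21, chr16:91546939-91547038, plus strand: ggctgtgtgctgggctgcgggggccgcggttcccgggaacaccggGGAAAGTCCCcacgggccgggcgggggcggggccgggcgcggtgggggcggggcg

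In the GENCODE annotation of GRCm38, Ifnar2 (chromosome 16, 91372783 to 91405589), Ifnar1 (91485238 to 91507441) and Ifngr2 (91547072 to 91565623) lie in 1 cluster on the plus strand, with the interleukin-10 receptor gene Il10rb between Ifnar2 and Ifnar1. Socs1 lies on the same chromosome at 10782240 to 10785536, Socs3 on chromosome 11 at 117966079 to 117970047 and Cish on chromosome 9 at 107296026 to 107302784. The Socs3 stretch is inside the span of a longer GENCODE transcript, in its intron. The Cish stretch is also inside the GENCODE span of its gene, which starts upstream of the RefSeq start. Ifnar2 shares exon sequence with Gm21970 on the same strand, which had 1 count in all libraries together against 24347 for Ifnar2. Genes overlapping Jak1, Tyk2 and Cish had at most 98, 21 and 3 counts in all.

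The scale on which levels are compared over all 8 groups is CPM after 1 TMM normalization of the 34 libraries. Cultured and adult cells were prepared apart, and these levels are a description without a test. CPM values are not divided by gene length, because the library kit reads the 3′ ends of transcripts. Socs3 spanned the widest range of the 10 genes, with a mean of 329.6 ± 123.5 CPM in the PS19 group and 279.6 ± 118.7 CPM in the NTG group. In cultured microglia Socs3 lay at 38.1 ± 19.6 CPM in Ikbkb+/+, 16.3 ± 4.06 in IkbkbCA, 14.3 ± 1.54 in IkbkbWT and 12.1 ± 1.74 in Ikbkb-/- cultures. It was lowest in the tau experiment, at 7.69 ± 2.54 CPM in vehicle and 7.65 ± 1.84 CPM in tau-treated cultures. The highest group mean of Socs3 was 43.1 times the lowest, and every adult library, at 146.3 CPM or more, exceeded every culture library, which reached at most 61.9 CPM. Neighbouring groups in the order overlapped everywhere else.

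Ifngr1, which encodes the ligand-binding chain of the interferon-γ receptor, was also highest in adult cells, at 951 ± 138.1 CPM in NTG and 753.3 ± 174.7 CPM in PS19. The primary cultures followed from 287.1 ± 21.8 CPM in Ikbkb+/+ down to 125.3 ± 20.7 CPM with vehicle. The adult libraries started at 505.6 CPM and the culture libraries ended at 309.7 CPM. Jak1, the kinase shared by both receptors, had group means in the same adult-over-culture order with smaller steps, from 455.4 ± 76.8 CPM in NTG to 191.7 ± 24.3 CPM with vehicle. Its adult and culture libraries overlapped, with IkbkbWT replicate 1 at 373.2 CPM above PS19 replicate 1 at 356.8 CPM. Ifnar2 ran from 237 ± 49.1 CPM in PS19 to 106.1 ± 10 CPM with vehicle, and only tau fibrils and the next group, Ikbkb-/-, did not overlap.

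Ifnar1, unlike Ifnar2, was highest in the 4 groups of Ikbkb cultures, at 38.4 to 45.7 CPM, and lower in adult cells, at 22 ± 11.6 CPM in PS19. No pair of neighbours in the Ifnar1 order was separate. Ifngr2 lay between 84.6 and 114.1 CPM in 7 groups, and vehicle cultures stood below them all, at 42.9 ± 10.5 CPM. For Tyk2, vehicle cultures were likewise the lowest and apart from the rest, at 16.4 ± 2.49 CPM against 32.4 to 42 CPM in the other groups. Jak2 had the narrowest range, with group means from 34.2 to 51.7 CPM and overlapping neighbours throughout. Socs1 group means ran from 1.26 ± 0.329 CPM in Ikbkb+/+ to 6.20 ± 4.37 CPM with tau fibrils. Cish was highest with vehicle, at 7.22 ± 2.73 CPM, and about 1 CPM in IkbkbWT, Ikbkb-/- and Ikbkb+/+ cultures. For Socs1 and Cish all neighbouring groups overlapped.

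**Figure D1:**
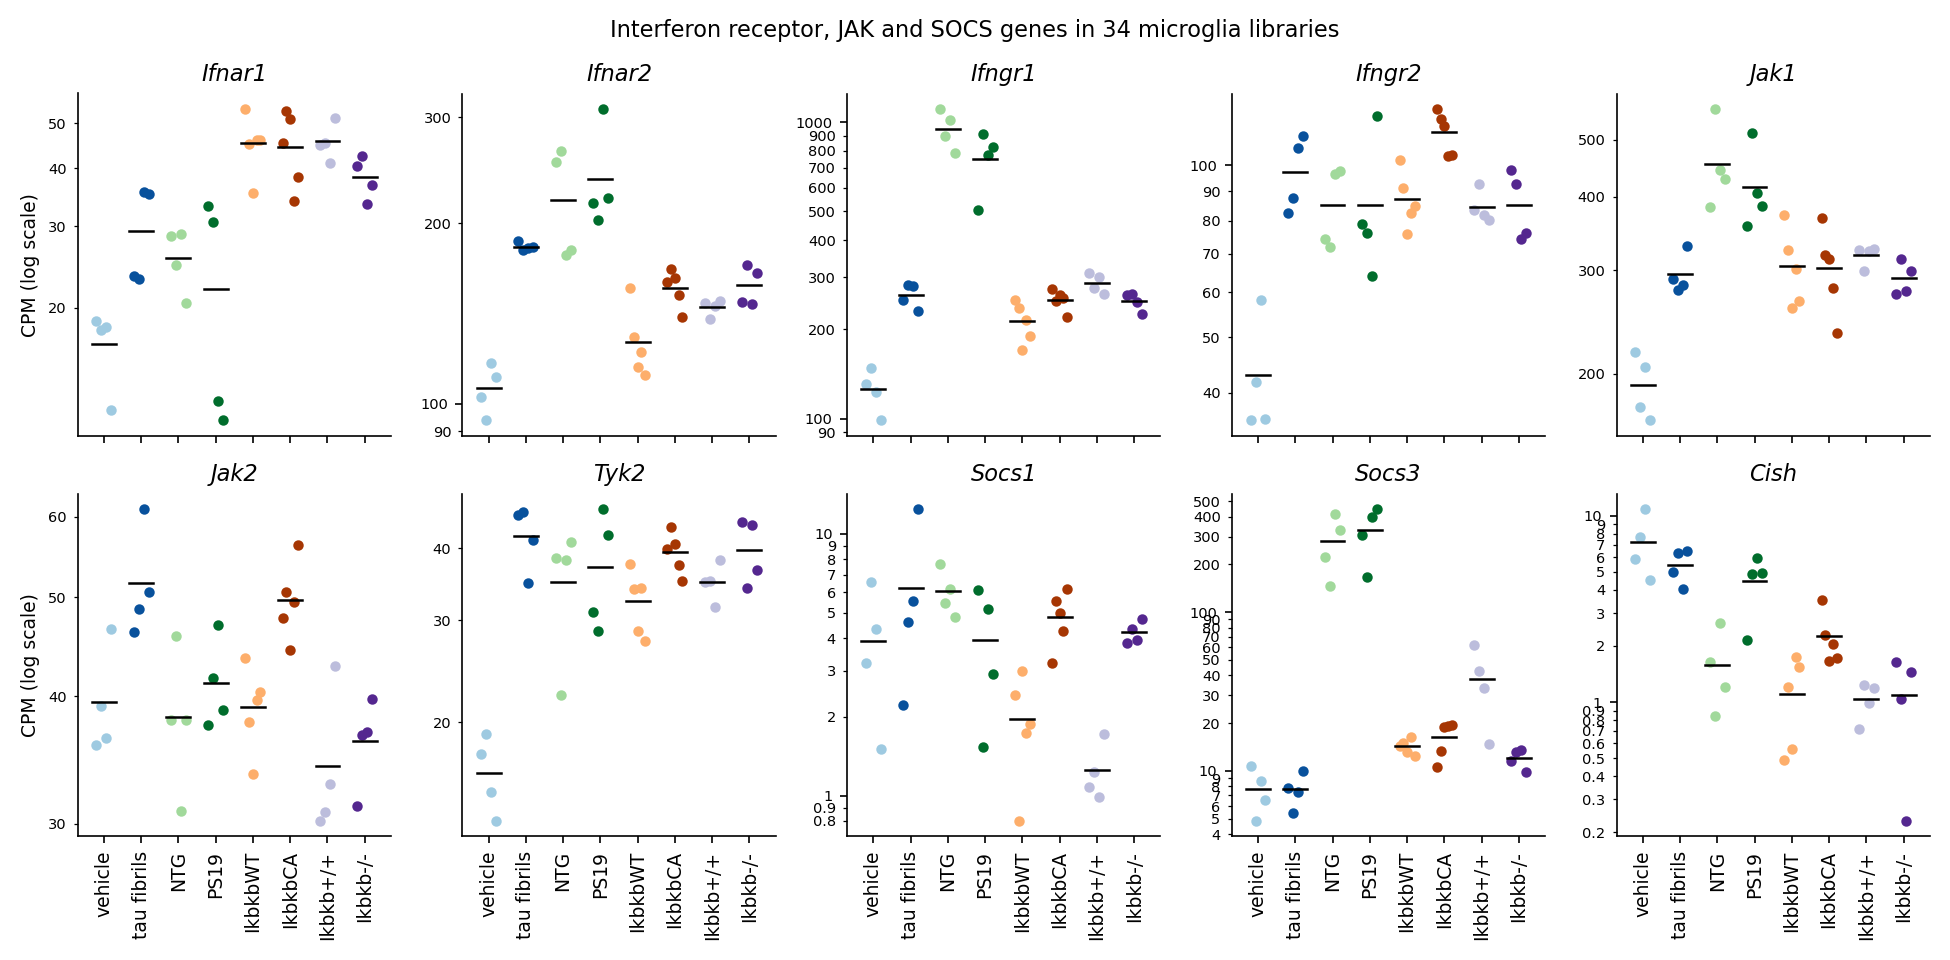
Level of each of the 10 genes in CPM on a log axis, by group, with 1 point per library and a black line at the group mean (34 libraries, 1 common TMM scale). Socs3 and Ifngr1 are highest in the 8 adult libraries, and vehicle cultures have the lowest means of all 4 receptor genes, Jak1 and Tyk2.

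Tau fibrils raised 6 of the 9 tested genes and lowered none. Over all 10408 genes tested, 29.9% were called at FDR under 0.05, 14.5% higher and 15.4% lower with tau fibrils. The called genes were the 4 receptor genes and 2 of the 3 kinases. In CPM of this comparison, the 9 tested genes had a median log2 fold change of 0.77, beside -0.01 over all genes tested.

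Among the receptor genes, Ifngr2, the signalling chain of the interferon-γ receptor, had 88.9, 94.3, 115.1 and 120.7 CPM in the 4 tau-treated libraries and 39.1, 45.3, 63.4 and 39.3 CPM in the 4 vehicle libraries. Every treated library was above every vehicle library, as for 28.3% of all genes tested in either direction, and the log2 fold change was 1.16 (SE 0.17, FDR 4.52e-06). Ifngr1 had 269.7, 303.5, 300.1 and 247.7 CPM with tau fibrils and 142.9, 161.4, 134.3 and 107.5 CPM with vehicle. The groups did not overlap either, with a log2 fold change of 1.03 (SE 0.14, FDR 1.3e-06).

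Ifnar2, the chain that binds type I interferon most tightly, was at 201.2, 193.5, 194.9 and 196.5 CPM in treated and at 112, 102, 127.7 and 120.5 CPM in vehicle libraries. The treated libraries lay within a few CPM of each other and all above the controls, a log2 fold change of 0.77 (SE 0.13, FDR 3.15e-05). Ifnar1 had 25.2, 24.8, 38.1 and 37.9 CPM with tau fibrils and 20.4, 19.5, 19.9 and 13.1 CPM with vehicle. Its log2 fold change was 0.78 (SE 0.22, FDR 0.00866), the groups did not overlap, and it rested on counts of only 24 to 96. With the share of reads outside genes in the model, calls over all genes fell from 3108 to 948, and Ifnar1 had a log2 fold change of 0.71 (SE 0.39, FDR 0.312) and was not called, while the other 5 genes were.

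Of the kinases, Tyk2, the partner of IFNAR1, changed most. It had 49.3, 49.6, 37.3 and 44.3 CPM with tau fibrils and 19.2, 20.7, 16.6 and 14.7 CPM with vehicle, a log2 fold change of 1.31 (SE 0.20, FDR 9.14e-06). Jak1 had 312.3, 298.6, 303.7 and 355.1 CPM in treated and 237.9, 191.3, 224.6 and 181.6 CPM in vehicle libraries. Its log2 fold change was 0.61 (SE 0.13, FDR 6.45e-04), again without overlap. Jak2, the kinase of IFNGR2, was at 49.9, 52.3, 65.5 and 54.5 CPM against 39.1, 42.5, 39.7 and 50.7 CPM. The highest vehicle library passed 1 treated library, and the log2 fold change of 0.38 (SE 0.17, FDR 0.096) was not called.

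The inhibitors gave no call. Socs3 had 8.41, 5.86, 7.94 and 10.7 CPM with tau fibrils and 11.7, 5.28, 9.46 and 7.09 CPM with vehicle, a log2 fold change of 0.02 (SE 0.35, FDR 0.977). Cish had 5.41, 6.76, 4.37 and 6.94 CPM against 6.41, 8.33, 11.8 and 4.91 CPM, a log2 fold change of -0.45 (SE 0.37, FDR 0.396). Both groups overlapped for either gene. Socs1 had 4, 11, 15 and 25 counts in treated and 6, 35, 10 and 3 counts in vehicle libraries, too few for the filter. Tested without it, its log2 fold change was 0.55 (SE 0.43, FDR 0.471), which was not called.

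Downstream and beside these genes, all 14 tested interferon targets rose with tau fibrils, with a median log2 fold change of 4.28. The largest were Irf7, a transcription factor that amplifies type I interferon, at 361.7 ± 42.8 CPM against 4.61 ± 0.616 CPM, and the chemokine gene Cxcl9, at 48.8 ± 2.82 CPM against 0.817 ± 0.292 CPM. Of 7 tested genes for STATs, IRF9 and JAK3, 4 rose and none fell, among them Stat2 (log2 fold change 3.29, SE 0.17, FDR 1.51e-14). Usp18, a brake that displaces JAK1 from IFNAR2, rose by 4.99 (SE 0.25, FDR 4.63e-15), and Ptpn6, which encodes the phosphatase SHP-1, by 1.95 (SE 0.14, FDR 1.7e-11). In that list of other SOCS genes and brakes 4 of 16 rose and 3 fell, among them Socs2 (-0.62, SE 0.24, FDR 0.0465) and Socs6 (-0.61, SE 0.15, FDR 0.00279). None of the 11 interferon ligand genes had a single count in these 8 libraries.

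Other JAK-coupled cytokine receptors moved in both directions, with 10 of 15 tested genes higher and 3 lower. Il2rg, the common γ chain, had the largest rise, 3.90 on the log2 scale (SE 0.23, FDR 1.79e-13), and Il10ra, the ligand-binding chain of the interleukin-10 receptor, rose by 2.03 (SE 0.22, FDR 4.31e-08). Il7r was lower by -1.04 (SE 0.27, FDR 0.00379) and Lifr, the receptor for leukaemia inhibitory factor, by -1.01 (SE 0.22, FDR 8.03e-04). Of 11 tested STAT3 and STAT5 targets 6 rose, with Bcl3 at 2.82 (SE 0.29, FDR 1.95e-08), and 2 fell, Ccnd2 at -1.24 (SE 0.13, FDR 1.19e-08) and Vegfa at -1.15 (SE 0.29, FDR 0.00316).

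Markers of cell types moved with the tau treatment. Of 8 microglial markers 5 were called higher, and their summed level was 7134 to 8378 CPM with tau fibrils and 3903 to 4637 CPM with vehicle. Neuronal markers were called lower for 4 of 6 genes, with sums of 181.4 to 236 CPM against 335.4 to 428.4 CPM. Astrocyte markers were called lower for 4 of 6 genes, with sums of 378.4 to 445.6 CPM against 702.5 to 753.9 CPM. All 6 genes of either list had a negative log2 fold change. None of these markers was at 0 throughout. In bulk libraries a larger share of microglia and more RNA of a gene per microglial cell cannot be told apart, and the part of these marker changes in the rise of the receptor genes was not tested. The share of reads outside genes was 16.3 to 22.2% with tau fibrils and 23.3 to 29.1% with vehicle.

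**Figure D2:**
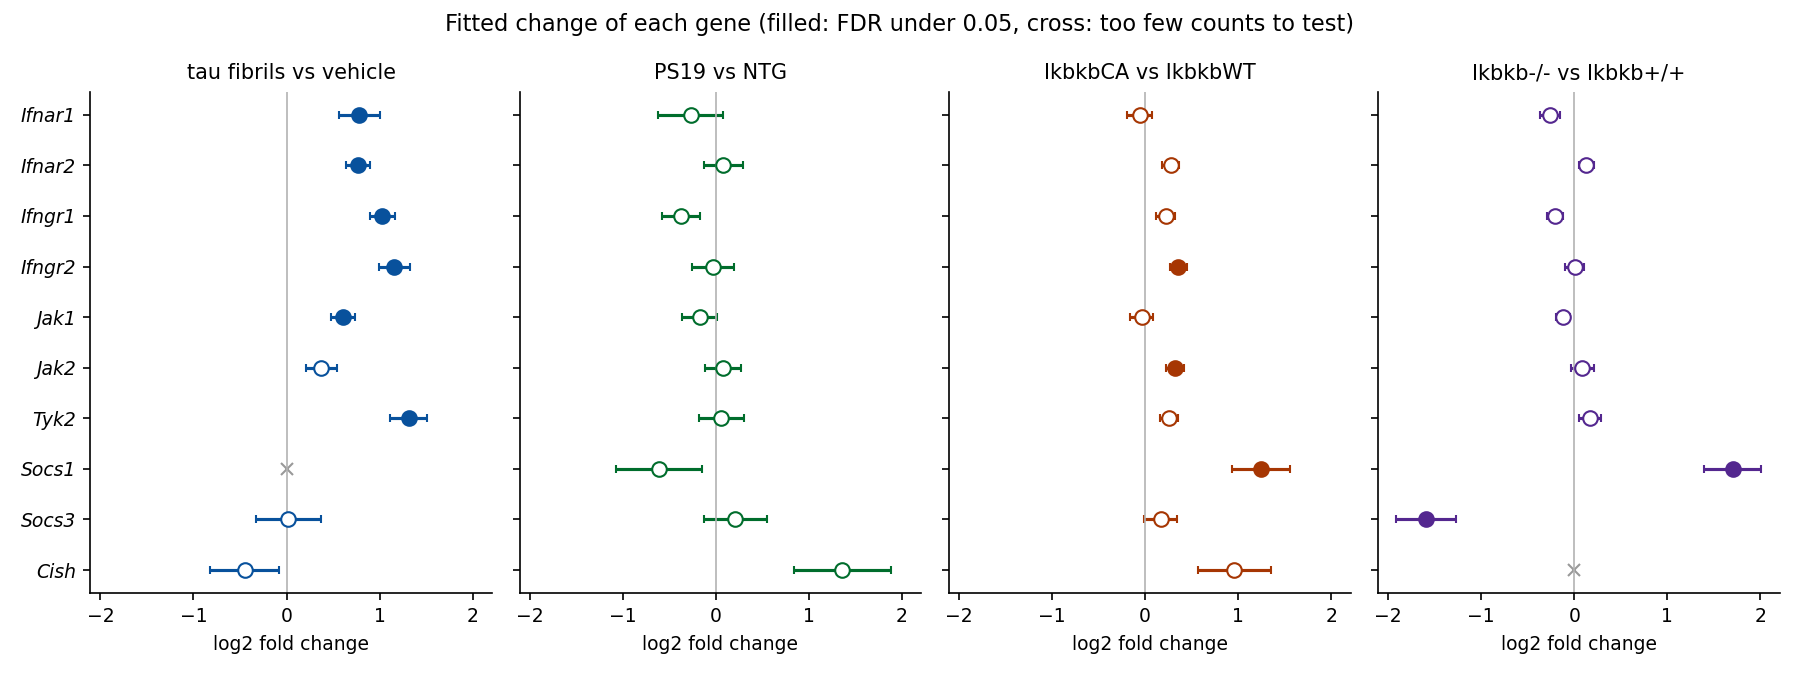
Fitted log2 fold change of each gene (point) with its standard error (bar) in the 4 comparisons. Filled points have FDR under 0.05 and crosses mark genes below the filter on low counts. Filled points sit at 0.61 to 1.31 for 6 genes with tau fibrils, PS19 has none, IkbkbCA has 3, and Ikbkb-/- has Socs1 at 1.70 and Socs3 at -1.59.

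In adult microglia none of the 10 genes was called between PS19 and NTG mice, where 0.0707% of 11323 tested genes were. That share depended on the processing. Over all genes tested, 79 were called higher and 19 lower with DESeq2, 127 higher and 39 lower without a filter, and 0 with age as a covariate. On simulated data edgeR recovered 23.7% of 2-fold changes in this comparison, so that a missing call does not show equal levels. The edgeR quasi-likelihood test gave 1 gene an unadjusted p under 0.05, limma-voom called none of the 10, and DESeq2 none of the 9 to which it gave an FDR. That gene was Cish, with 12, 16, 40 and 29 counts in PS19 and 3, 2, 12 and 2 counts in NTG libraries. In CPM these were 1.98, 4.26, 5.24 and 4.40 against 1.51, 0.771, 2.36 and 1.11, so that 3 of 4 PS19 libraries were above all NTG libraries. Its log2 fold change was 1.36 (SE 0.52, FDR 0.483). The groups overlapped for all 10 genes, and 5.77% of the genes tested had groups without overlap.

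The abundant genes of adult cells varied widely within each group. Socs3 was at 281, 144.2, 355.2 and 395.1 CPM in PS19 and at 204.7, 134.2, 371.4 and 305.7 CPM in NTG microglia, with overlapping groups and a log2 fold change of 0.21 (SE 0.34, FDR 0.902). Ifngr1 was at 464, 792.2, 684.9 and 730 CPM against 1010, 822.7, 902.7 and 727.5 CPM. Its log2 fold change was -0.37 (SE 0.21, FDR 0.644), and the PS19 libraries fell partly inside the NTG range. The other receptor and kinase genes had log2 fold changes between -0.27 for Ifnar1 (SE 0.35) and 0.08 for Ifnar2 (SE 0.21), and Socs1 had -0.61 (SE 0.46, FDR 0.745).

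Ifnar1 separated within the PS19 group, at 30.5 and 26.6 CPM in replicates 1 and 2 and 11.1 and 10.2 CPM in replicates 3 and 4, while the NTG libraries ranged from 18.9 to 26.1 CPM. Both PS19 pairs lay outside the NTG range, on opposite sides of it. In the same experiment no gene of the 5 pathway lists was called, and the interferon targets had a median log2 fold change of 0.35. Of 66 list entries tested by edgeR 0 were called and 10 had an unadjusted p under 0.05. Il4ra counts in both the receptor list and the list of STAT3 and STAT5 targets. The ligand gene Ifnb1 reached 21 counts in a PS19 library, the highest count of any interferon ligand in the 34 libraries. Granulocyte markers summed to 352 to 2186 CPM in PS19 and 1329 to 1945 CPM in NTG libraries, and did not split as Ifnar1 did. Other marker sums did split between replicates 1 and 2 and replicates 3 and 4. In PS19 replicates 1 to 4 astrocyte markers summed to 789.8, 948.4, 1803 and 1438 CPM and neuronal markers to 33.1, 30.3, 11.5 and 9.57 CPM. Microglial markers summed to 20630, 23250, 29740 and 33600 CPM. The part of these markers in the spread of the 10 genes was not tested.

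In IkbkbCA cultures 3 of the 10 tested genes were called higher than in IkbkbWT, and none was called lower. The background was 14.5% of 11697 genes called, 7.31% higher and 7.16% lower in IkbkbCA. Socs1 was at 3.23, 5.56, 4.96, 4.33 and 6.26 CPM in the 5 IkbkbCA libraries and at 2.44, 0.813, 3.08, 1.82 and 1.96 CPM in the 5 IkbkbWT libraries. All IkbkbCA libraries were above all controls, where 12.7% of the genes tested had groups without overlap in either direction, with 19 to 31 counts against 4 to 17, and the log2 fold change was 1.25 (SE 0.32, FDR 0.0206). The call was lost when IkbkbWT replicate 4, IkbkbCA replicate 2 or IkbkbCA replicate 5 was left out, with an FDR of at most 0.057 and log2 fold changes over all such fits of 1.06 to 1.44.

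Ifngr2 was at 126.1, 120.8, 116.9, 105.6 and 106.1 CPM with IKKβ activation and at 102.4, 92.3, 78.3, 86.5 and 88.9 CPM in controls. The groups did not overlap, and the log2 fold change of 0.36 (SE 0.09, FDR 0.0168) stayed called whichever library was left out. Jak2 was at 48.1, 50.8, 44.3, 50.4 and 57.3 CPM against 43.7, 38.2, 34.6, 41.5 and 42.3 CPM. Its lowest IkbkbCA library stood just above the highest control, the log2 fold change was 0.32 (SE 0.09, FDR 0.0388), and 7 of the 10 fits without 1 library lost the call.

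The other genes were not called. Ifnar2 had a log2 fold change of 0.28 (SE 0.09, FDR 0.0629), Tyk2 of 0.26 (SE 0.10, FDR 0.105) and Ifngr1 of 0.22 (SE 0.10, FDR 0.187). Ifnar1 had -0.06 (SE 0.14) and Jak1 -0.03 (SE 0.13). Socs3 was at 10.7, 13.4, 18.9, 19.6 and 19.8 CPM in IkbkbCA and at 14.5, 15.2, 13.7, 17 and 12.9 CPM in IkbkbWT. The IkbkbCA libraries lay on both sides of the controls, with a log2 fold change of 0.17 (SE 0.18, FDR 0.627). Cish was at 3.57, 2.30, 1.65, 2.10 and 1.75 CPM against 0.488, 1.22, 0.577, 1.82 and 1.61 CPM, a log2 fold change of 0.96 (SE 0.39, FDR 0.135) from counts of 3 to 21.

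All 14 tested interferon targets were higher in IkbkbCA cultures, with a median log2 fold change of 2.75, led by Irf7 (4.20, SE 0.38, FDR 2.98e-05) and Ifit3 (3.75, SE 0.41, FDR 1.06e-04). Stat2 rose by 2.04 (SE 0.28) among 3 of 8 genes of that list called higher, and Stat3 fell, at -0.45 (SE 0.12, FDR 0.0214). The brake Usp18 rose by 3.94 (SE 0.40, FDR 5.3e-05), while Ptpn1, which encodes the phosphatase PTP1B that acts on JAK2 and TYK2, fell, at -0.68 (SE 0.15, FDR 0.0105), and the list had 2 of 16 genes higher and 2 lower. Of 16 other JAK-coupled receptors 4 rose and 4 fell. Il2rg rose by 3.21 (SE 0.22, FDR 4.87e-06) and Epor, the erythropoietin receptor, fell, at -1.34 (SE 0.29, FDR 0.00847). Of 12 STAT3 and STAT5 targets 2 rose, Junb (0.63, SE 0.11) and Mcl1 (0.61, SE 0.08), and none was called lower. Ifnb1, the only interferon ligand counted in these cultures, reached at most 4 counts in a library.

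The share of reads outside genes was 12.4 to 14% in IkbkbCA and 15.9 to 18.7% in IkbkbWT libraries, without overlap. With this share in the model calls over all genes fell from 1692 to 22 of 11697, and none of the 10 genes was called. The log2 fold changes were then 0.71 (SE 0.21) for Ifngr2, 0.47 (SE 0.25) for Jak2 and 0.73 (SE 0.85) for Socs1, so that the errors of all 3 were larger than without the term. Markers of border-associated macrophages were called lower for 4 of 5 tested genes, with sums of 484.6 to 1026 CPM in IkbkbCA and 1418 to 1983 CPM in IkbkbWT libraries. The granulocyte marker S100a8 was higher, at 31.2 ± 25.9 CPM against 5.40 ± 1.58 CPM, with sums over that list of 16.7 to 85 CPM against 7.31 to 13.2 CPM. Of 8 microglial markers Aif1, Itgam and Tmem119 were called higher and Cx3cr1 lower, with overlapping sums of 6136 to 10120 CPM in IkbkbCA and 6277 to 8744 CPM in IkbkbWT. Oligodendrocyte markers summed to 4969 CPM in IkbkbWT replicate 3, which had the lowest control values of Ifngr2 and Jak2, and to 261.6 to 671.6 CPM in the other controls. Without this library the log2 fold change was 0.32 for Ifngr2 (FDR 0.0382) and 0.28 for Jak2 (FDR 0.0667), so that the call of Jak2 was lost. Neuronal markers summed to 286.2 to 309.4 CPM in replicates 4 and 5 of both genotypes and to at most 107.9 CPM in the other 6 libraries. With a term for these 4 libraries, chosen after seeing the data, Socs1, Ifngr2 and Jak2 stayed called and Ifnar2 was called as well (log2 fold change 0.28, FDR 0.0409). Within the 4 libraries, replicates 4 and 5 of each genotype, the log2 fold changes were 1.47 for Socs1, 0.31 for Ifngr2 and 0.40 for Jak2, all called. Within the other 6 they were 1.10, 0.42 and 0.30, none of them called. Replicates 4 and 5 of each genotype were close to each other in counts, and whether they come from separate cultures is not given. The fit within the 4 libraries took them as independent. Among the 4 libraries Ddx3y was at 1.16 and 2.08 CPM in IkbkbWT and at 85.8 and 68.6 CPM in IkbkbCA. Genotype and the male share of cells cannot be told apart within them. The part of the cell type markers in the changes of Socs1, Ifngr2 and Jak2 was not tested.

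In Ikbkb-/- cultures Socs1 was called higher and Socs3 lower than in Ikbkb+/+, and no other of the 9 tested genes was called. Of 11242 genes tested, 14.6% were called, 7.64% higher and 6.96% lower in Ikbkb-/- cultures. Socs1 was at 3.95, 4.43, 3.98 and 4.79 CPM in Ikbkb-/- and at 1.12, 1.26, 0.992 and 1.72 CPM in Ikbkb+/+ libraries. All deleted libraries were above all controls, where 18.1% of the genes tested had groups without overlap in either direction, from 7 to 26 counts against 3 to 13, and the log2 fold change was 1.70 (SE 0.31, FDR 8.46e-04). It stayed called without any 1 library. With the log2 level of Ddx3y in the model its log2 fold change was 2.34 (SE 1.17, FDR 0.364) and the call was lost, as calls over all genes fell from 1641 to 308. Levels of Ddx3y did not overlap between the groups, so that this fit cannot separate Ddx3y from genotype.

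Socs3 was at 11.9, 13.5, 13.8 and 9.96 CPM in Ikbkb-/- and at 64.1, 43.6, 33.6 and 14.7 CPM in Ikbkb+/+ replicates 1 to 4. The deleted libraries were tightly grouped and all lower, while the controls spread widely and replicate 4 nearly reached the deleted ones. The log2 fold change was -1.59 (SE 0.32, FDR 0.00188), and between -1.90 and -1.29 when each library in turn was left out, always called. With the Ddx3y level in the model it was -4.10 (SE 0.50, FDR 9.71e-05). Levels of Ddx3y did not overlap between the groups (156.1 to 177.9 against 34.9 to 70.8 CPM). That fit therefore extrapolates beyond either group and cannot separate Ddx3y from genotype. The summed level of the granulocyte markers in Ikbkb+/+ replicates 1 to 4 was 385.5, 89.5, 36.4 and 11.6 CPM, the same order as Socs3, and 9.38 to 14.5 CPM in Ikbkb-/- libraries, where Ly6g had no count. Astrocyte markers fell in the same order, at 211.8, 154.7, 98.7 and 52.4 CPM, beside 37.3 to 72.7 CPM in Ikbkb-/- libraries, with Slc1a3 called lower and Aldoc higher in Ikbkb-/-. Microglial markers (11190, 10330, 9480 and 7979 CPM) and Ddx3y (70.8, 62.9, 38.5 and 34.9 CPM) followed that order as well. Library totals ran the other way, at 2689418, 4740377, 5993600 and 7436579 counts. The part of these markers and of depth in the difference of Socs3 was not tested.

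**Figure D3:**
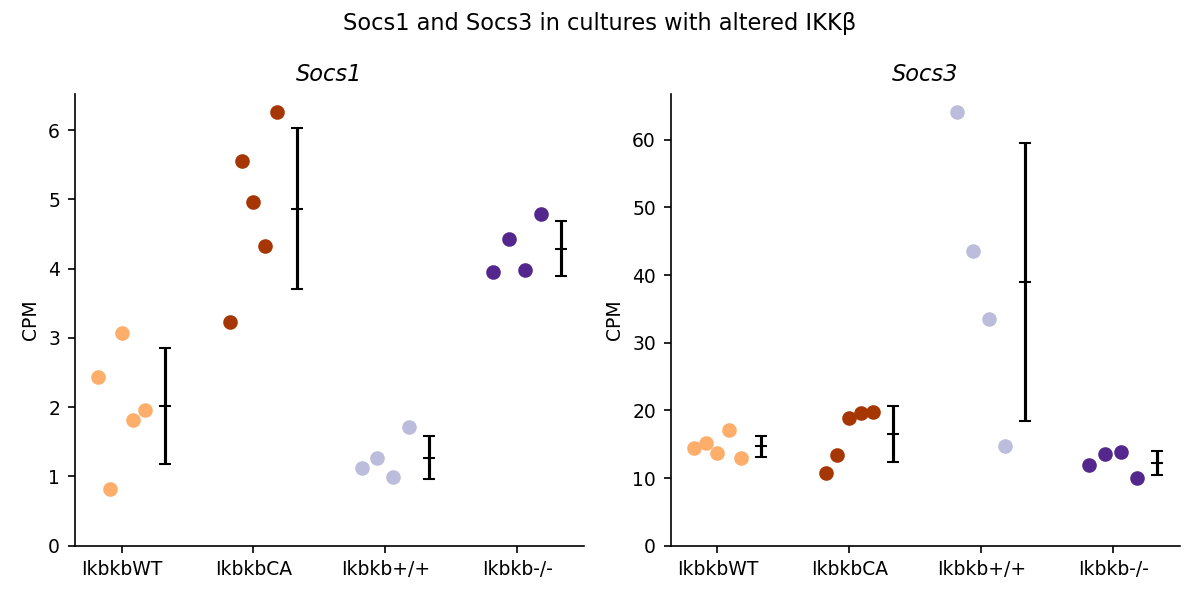
Socs1 and Socs3 in CPM (linear axes from 0) in the 4 groups with altered IKKβ and their controls, with 1 point per library and the mean ± SD beside it. Socs1 lies above its controls in all 5 IkbkbCA and all 4 Ikbkb-/- libraries, and Socs3 in Ikbkb+/+ controls spreads from 14.7 to 64.1 CPM above the Ikbkb-/- libraries.

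The receptors and kinases had smaller values in the deletion comparison, none of them called. Ifnar1 had a log2 fold change of -0.26 (SE 0.11, FDR 0.132) and Ifngr1 of -0.20 (SE 0.09, FDR 0.131), and with Socs1 and Socs3 these were the 4 of 9 genes with an unadjusted p under 0.05. Tyk2 had 0.17 (SE 0.11), Ifnar2 0.13 (SE 0.08), Jak1 -0.12 (SE 0.08), Jak2 0.09 (SE 0.12) and Ifngr2 0.003 (SE 0.10). The groups overlapped for each of these genes. Cish, with 1 to 9 counts in a library, was too low to be tested, at 1.11 ± 0.644 CPM in Ikbkb-/- and 1.05 ± 0.232 CPM in Ikbkb+/+.

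Of 15 tested interferon targets 13 rose in Ikbkb-/- cultures and none was called lower, with a median log2 fold change of 3.22. Irf7 was at 389.5 ± 109.3 CPM against 12 ± 2.50 CPM, and Stat2 rose by 2.73 (SE 0.11, FDR 4.92e-12). The STAT list had 3 of 8 genes higher, and Stat5a lower at -0.73 (SE 0.19, FDR 0.0119). Usp18 rose by 3.92 (SE 0.18, FDR 1.36e-11) and Socs6 by 0.36 (SE 0.09, FDR 0.0122), the 2 of 16 other brakes that were called. Of 12 STAT3 and STAT5 targets 4 fell, with Myc at -1.28 (SE 0.27, FDR 0.00301) and Junb at -0.53 (SE 0.10, FDR 0.00159), and Ccnd2 rose. Among 16 other JAK-coupled receptors 3 fell, with Il7r at -1.88 (SE 0.48, FDR 0.0122), and Csf2rb2 rose.

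Border-associated macrophage markers were called lower for all 5 tested genes of 6 in Ikbkb-/- cultures, with sums of 423.5 to 745.8 CPM against 1541 to 1832 CPM. Oligodendrocyte markers were called higher for 5 of 6 genes, with sums of 454.1 to 532.5 CPM against 227.3 to 338.9 CPM. No lymphocyte marker exceeded 1 count in a library. The part of these markers in the changes of Socs1 and Socs3 was not tested.

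Whether the effects of the 2 IKKβ genotypes differ was tested as a difference of log2 fold changes over their 18 libraries, for which 3.12% of 12352 genes were called. Among the 10 genes, Socs3 alone was called, at 1.81 (SE 0.41, FDR 0.018), higher with activation than with deletion. This call was lost without Ikbkb-/- replicate 4 (FDR 0.0505) and under limma-voom. Taken alone, Socs3 was called with deletion (-1.59) and not with activation (0.17, FDR 0.627). The part of the markers that followed the order of Socs3 in Ikbkb+/+ libraries was not tested in this difference either. For Socs1, which rose in both genotypes, the difference was -0.45 (SE 0.44, FDR 0.683) and was not called. Ifngr1 had 0.44 (SE 0.14, FDR 0.116) and Ifngr2 0.37 (SE 0.14, FDR 0.208).

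The response to tau fibrils was set against that to IKKβ activation in the same way, again over 18 libraries, with 9.42% of 12841 genes called. Tyk2 had a difference of 0.98 (SE 0.19, FDR 0.00231), Ifngr1 of 0.74 (SE 0.18, FDR 0.0115) and Ifngr2 of 0.73 (SE 0.19, FDR 0.0217), all larger with tau fibrils. Ifnar1, Ifnar2 and Jak1 had differences of 0.77 (SE 0.26, FDR 0.0646), 0.42 (SE 0.14, FDR 0.0682) and 0.56 (SE 0.18, FDR 0.0596), which were not called. Jak2 had -0.02 (SE 0.16, FDR 0.958) and Cish -1.47 (SE 0.55, FDR 0.101). The part of the microglial, neuronal and astrocyte markers that moved with tau fibrils was not tested in these differences either, and the 2 experiments were prepared apart.

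**Figure D4:**
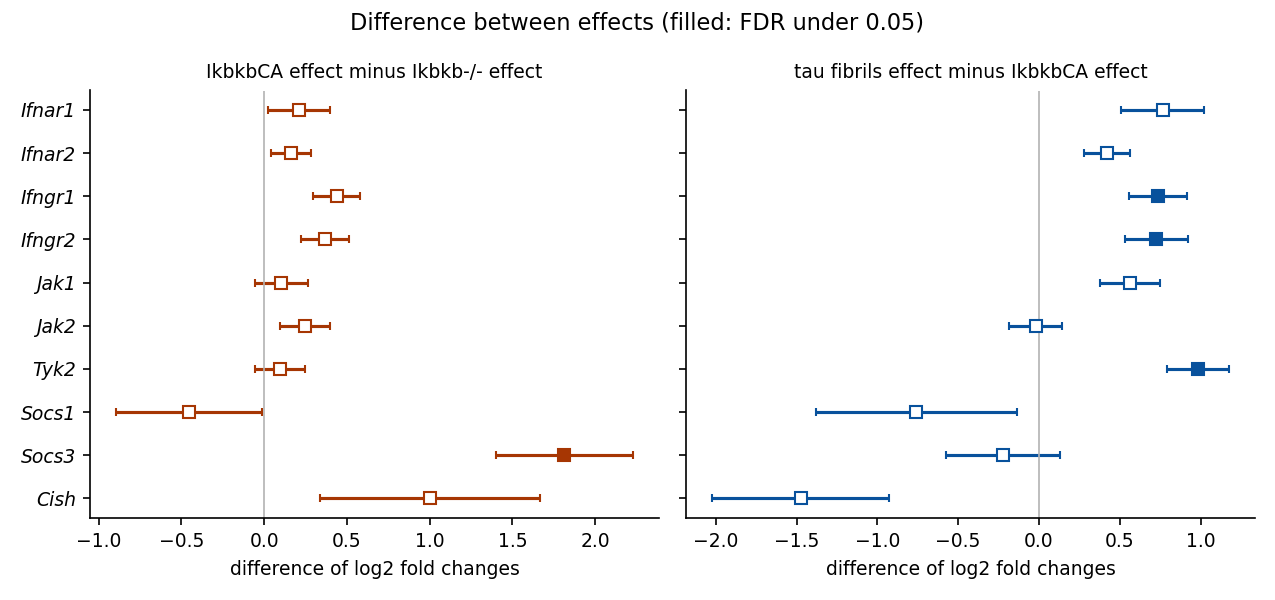
Difference of log2 fold changes (square) with its standard error (bar) for each of the 10 genes, filled where FDR is under 0.05. On the left, the effect of IKKβ activation minus that of deletion is filled for Socs3 at 1.81, and on the right, the effect of tau fibrils minus that of IKKβ activation is filled for Ifngr1, Ifngr2 and Tyk2.

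The genes whose pattern over the 34 libraries was most like that of each inhibitor were found from log2 CPM after the mean of each experiment had been subtracted. These correlations are a description over libraries that share depth and cell mix. Socs3 was most like Dusp1, which encodes a phosphatase of MAP kinases and is an immediate early gene, with a Pearson r of 0.819, followed by Chst7 (0.727), Srsf7 (0.722), Ppp1r15a (0.688) and Itgax (0.685). Cish was most like Socs2 (0.652), another SOCS gene induced through STAT5, then Pqbp1 (0.648), Eif1 (0.613), Vegfa (0.606) and Mgat4b (0.60). Socs1 was most like Ciao1 (0.761), Etv6 (0.760), Tor1aip1 (0.722), Aga (0.719) and Tdrd7 (0.705), with counts of Socs1 between 3 and 35 in every library of the 34.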

How the data were processed

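Total RNA of 34 microglia libraries was converted with the QuantSeq 3′ FWD kit, which reads transcript 3′ ends. The deposited files hold raw counts per Ensembl gene that the authors obtained from their reads. Per the study's methods, microglia reads were mapped to GRCm38 on Lexogen's pipeline at BlueBee, whereas STAR was used for cortex. RSEM is named there for the count table without a sample set, and the strand setting is not given in the sources used here. Counts on 5 lines that name no gene were left out. Reads outside genes made up 12.4 to 38.3% of the reads counted in a gene, outside genes or as ambiguous between genes. GENCODE M21 gave symbols for 47224 of 47643 genes. The 24 cortex samples were not analysed here.

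Each comparison was fitted alone with edgeR 4.0.16 (R 4.3.3): TMM, filterByExpr (minimum count 10, minimum total 15), quasi-likelihood F test, Benjamini-Hochberg adjustment (FDR) over all genes tested, called under 0.05. Differences of effects were fitted over 18 libraries. CPM beside a test are TMM CPM of that comparison. Alternatives used DESeq2 1.42.0 factors and test, limma-voom (limma 3.58.1), total-count scaling, other filters, covariates and each library left out. No library was identical to another of its group (56 pairs). A chi-square of counts per degree of freedom, higher for less alike libraries, was 3.085 for IkbkbWT replicates 1 and 2 and 4.463 for 4 and 5. The other IkbkbWT pairs had 10.97 to 20.95. In IkbkbCA the values were 3.249 and 4.886 against 11.43 to 42. Whether such pairs share a culture is not given, and the tests took all libraries as independent. On simulated data with 200 changed genes, edgeR recovered 74.5% of 2-fold changes for tau fibrils, 23.7% for PS19, 73.2% for IkbkbCA and 91.8% for Ikbkb-/-, and 2.86, 3.7, 3.59 and 8.37% of its calls were false.

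The 10 genes and all lists were chosen with earlier results of these data known. All 10 are named throughout. From each list up to 2 called genes of the highest and up to 2 of the lowest log2 fold change are named (1 gene that the rule selects is not reported here), with Ikbkb and Cx3cr1 as a genotype check, and the 5 genes most like each inhibitor among those tested in all 4 comparisons (log2 of CPM + 1). Dixon's test was applied to each of 80 sets of values of a gene in a group.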

Additional observations from a re-analysis of the deposited data

Results flagged for a closer look

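Among 80 sets of values of 1 gene in 1 group, Dixon's test set 2 libraries apart, where about 1 set in 20 would be set apart by chance. Ifnar1, a type I interferon receptor gene, was at 13.1 CPM in vehicle replicate 4 and at 19.5 to 20.4 CPM in the other 3 vehicle libraries. Its log2 fold change with tau fibrils stayed called whichever library was left out. Tyk2 was at 20.4 CPM in NTG replicate 2 and at 34.1 to 37.8 CPM in the other 3 NTG libraries, and without that library its difference between PS19 and NTG was -0.08 on the log2 scale, still not called.

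Of 20 tested differences between effects 4 were called by the edgeR interaction test. The effect of IKKβ activation on Socs3 exceeded that of deletion by 1.81 (FDR 0.018). Taken alone, Socs3 was called with deletion (-1.59) and not with activation (0.17). The effect of tau fibrils exceeded that of IKKβ activation by 0.74 for Ifngr1 (FDR 0.0115), by 0.73 for Ifngr2 (FDR 0.0217) and by 0.98 for Tyk2 (FDR 0.00231).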

How the results depend on the processing

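The 6 calls with tau fibrils held under all alternatives and with each library left out, except Ifnar1 when the share of reads outside genes was in the model. For IkbkbCA the count of 3 called genes fell to 0 with that covariate and to 0 in the 6 libraries with low neuronal markers, an alternative chosen after seeing the data. Jak2 was not called with total-count scaling or without a filter, Ifnar2 was called with DESeq2, the stricter filter, the fit of 18 libraries, and with a term for neuronal markers or in the 4 libraries high in them, and Cish with Ddx3y as a covariate. In that comparison, with each library left out it ranged from 1 to 4. It was 1, Ifngr2, without IkbkbWT replicate 4, IkbkbCA replicate 2 or IkbkbCA replicate 5. For Ikbkb-/- the count of 2 fell to 1, Socs3, with at least 10 counts in every library, which removes Socs1, and to 1 with Ddx3y as a covariate. Levels of Ddx3y did not overlap between these 2 groups, so that the last fit cannot separate Ddx3y from genotype. The difference of Socs3 between IKKβ genotypes was lost with limma-voom (0 genes called), and 0 to 1 genes were called with each library left out, 0 without Ikbkb-/- replicate 4. Between tau fibrils and IKKβ activation 6 differences were called with total-count scaling, and with each library left out from 3 to 6, with 5 without IkbkbWT replicate 3 and 6 without IkbkbCA replicate 3.

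Values that changed sign were never called. When that share was in the model they were Cish at 0.52 with tau fibrils, Ifnar2 at -0.0015, Tyk2 at -0.0017 and Socs3 at -0.12 for PS19, and Ifnar1 at 0.37, Jak1 at 0.36 and Socs3 at -0.50 for IkbkbCA. With total-count scaling they were Socs3 at -0.13 with tau fibrils, and Ifngr2 at 0.011 for PS19 and at -0.026 for Ikbkb-/-. Without a filter Ifngr2 was at 0.014 for PS19 and at -0.016 for Ikbkb-/-. For Ikbkb-/-, Ifngr2 was also at -0.012 with limma-voom, -0.0092 with the stricter filter and -0.45 with Ddx3y as a covariate. With age as a covariate Tyk2 was at -0.11 and Socs3 at -0.20 for PS19. The cause of these shifts was not tested. In the 6 IkbkbCA and IkbkbWT libraries with low neuronal markers Ifnar1 was at 0.15, Jak1 at 0.056 and Socs3 at -0.0051. With each library left out in turn, the values that changed sign ranged from -0.13 to 0.036 for Ifnar1 and -0.084 to 0.071 for Jak1 in IkbkbCA, from -0.071 to 0.21 for Ifnar2, -0.25 to 0.087 for Ifngr2, -0.024 to 0.21 for Jak2 and -0.081 to 0.19 for Tyk2 in PS19, and from -0.065 to 0.061 for Ifngr2 in Ikbkb-/-. Socs3 ranged from -0.20 to 0.21 with tau fibrils, and the difference of Jak2 between tau fibrils and IKKβ activation from -0.068 to 0.061. No paired analysis was possible because the labels give no replicate numbers shared between groups, and the numbers used here follow the order of deposit. Depth limits Socs1 and Cish most, which had at most 35 and 41 counts in a library.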
